A study of Mus musculus with 6 samples.

Results

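A set of 9 genes of vitamin A metabolism was followed in mouse cheek skin, taken by symbol from the deposited table of 19309 genes: Rdh10, Dhrs9, Aldh1a1, Aldh1a2, Aldh1a3, Crabp1, Crabp2, Rarg and Cyp26b1. All 9 of the 9 symbols were found, and all 9 were among the 15109 genes with enough counts to test. The skin came from 3 healthy C57BL/6 mice aged 6 to 8 weeks. In each mouse the right cheek was wiped each morning and late afternoon with an equal mixture of acetone and ether (30 s) followed by water (30 s), which strips surface lipids and dries the skin (AEW). The left cheek of the same mouse received water alone for 60 s (vehicle), and both cheeks were taken on day 12. Each group thus held 3 bulk RNA-seq libraries, side of the face coincided with treatment in every animal, and the labels mention shaving for the right cheek alone.

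Skin makes its own retinoic acid from blood-borne retinol. Retinol dehydrogenases such as Rdh10 and Dhrs9 oxidise retinol to retinaldehyde, and the Aldh1a enzymes oxidise retinaldehyde irreversibly to retinoic acid. Crabp1 and Crabp2 bind the acid in the cytosol, Rarg is the retinoic acid receptor best known from epidermis, and Cyp26b1 hydroxylates the acid for removal. In epidermis and hair follicles this signal is known to act on keratinocyte differentiation and on hair growth.

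Library totals ran from 18449207 to 19506491 estimated counts. Keratinocyte genes of skin were abundant in every library, with a summed level of 7 basal keratinocyte genes between 7094 and 13149 CPM (counts scaled to library size, after TMM factors). The AEW library of mouse 1 stood apart from the other AEW libraries. A chi-square statistic per degree of freedom over genes was 71.5 and 59.8 between it and AEW mice 2 and 3, against 20.4 between the latter pair. A list of 9 tested genes of the hair shaft and inner root sheath summed to 2418 CPM in it, to 25.3 CPM in AEW mouse 2 and to 683 CPM in AEW mouse 3, against 368 to 406 CPM in vehicle skin, and 1 of them, Krt86, had 0 counts in AEW mouse 2. The 5 melanocyte genes summed to 236 CPM in AEW mouse 1, 39.2 CPM in AEW mouse 2, 44.0 CPM in AEW mouse 3 and 18.4 to 27.7 CPM in vehicle skin. Results that rest on this library are given with and without it.

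Of the 9 retinoid genes, Aldh1a1 was the single one that passed the test between AEW and vehicle skin (quasi-likelihood test of edgeR, Benjamini-Hochberg adjusted p under 0.05 over all tested genes), and it was lower. No member was called higher at that threshold, 2 were higher at an unadjusted p under 0.05 (Aldh1a3 and Rdh10), and DESeq2 called 1 higher (Aldh1a3). Over all tested genes 4.85% were called higher and 6.8% lower, 14.8% were higher at an unadjusted p under 0.05, and DESeq2 called 8.56% higher. The call of 1 member of 9 is near that background and is no result about the set. The median log2 fold change (AEW minus vehicle throughout) was 0.24 over the 9 members and 0.014 over all tested genes, with 7 members positive and 2 negative. With the mouse as a block Aldh1a1 was again the 1 member called, and 1.99% of all genes were called higher and 3.89% lower.

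**Figure D1:**
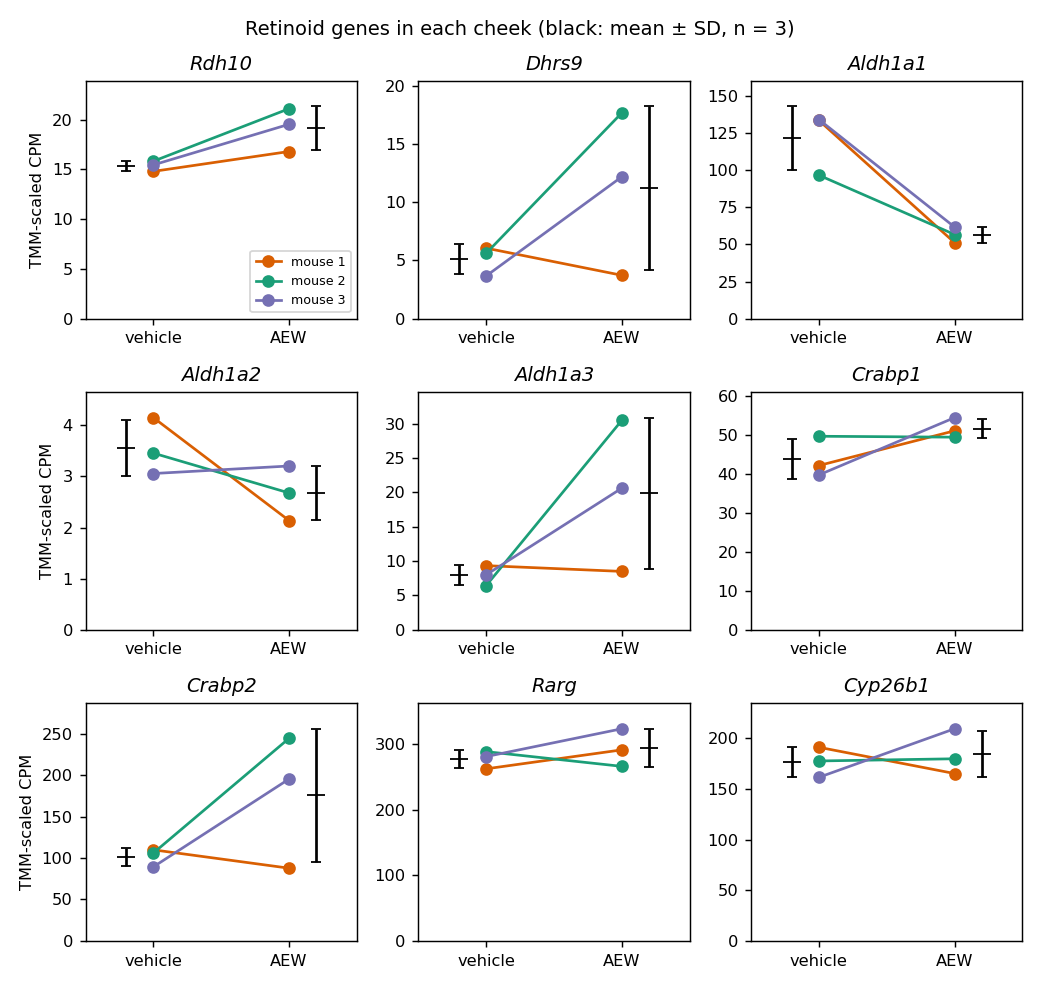
Levels of the 9 retinoid genes in each cheek, in TMM-scaled CPM on a linear axis from 0, with coloured lines joining the 2 cheeks of a mouse and black bars for the group mean and SD (n = 3). Aldh1a1 falls along all 3 lines. Dhrs9, Aldh1a3 and Crabp2 are higher on the AEW side in mice 2 and 3, whereas in mouse 1 Dhrs9 and Crabp2 are lower on that side and Aldh1a3 is nearly level.

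On the deposited TPM scale, which corrects for gene length and allows levels of different genes to be set side by side, the retinoic acid binding protein and receptor transcripts were the most abundant in vehicle skin. Crabp2 stood at 193 ± 20.2 TPM, Rarg at 158 ± 9.86 TPM and Crabp1 at 94.0 ± 12.3 TPM (SD, n = 3). Aldh1a1 followed at 77.1 ± 12.3 TPM, Cyp26b1 at 57.3 ± 3.87 TPM and Rdh10 at 11.0 ± 0.55 TPM. The 3 scarcest were Aldh1a3 at 3.80 ± 0.64 TPM, Dhrs9 at 2.98 ± 0.73 TPM and Aldh1a2 at 2.58 ± 0.38 TPM, and neighbours among these 3 had overlapping libraries. Crabp1 and Aldh1a1 were next to each other with libraries that nearly touched, the lowest Crabp1 library at 85.15 TPM and the highest Aldh1a1 library at 85.02 TPM. In AEW skin Crabp2 (343 ± 145 TPM) overlapped Rarg (174 ± 23.8 TPM), Cyp26b1 (61.9 ± 7.87 TPM) stood above Aldh1a1 (37.7 ± 3.60 TPM) with no overlap, and the 4 lowest genes each overlapped the next in order.

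The first step, from retinol to retinaldehyde, showed a small difference in one enzyme and a large but uneven one in the other. Rdh10 (gene 98711), the main retinol dehydrogenase of development, measured 14.8, 15.8 and 15.5 CPM in vehicle mice 1, 2 and 3 and 16.8, 21.1 and 19.5 CPM in AEW mice 1, 2 and 3. All 3 AEW libraries lay above all 3 vehicle libraries, as was the case for 17.4% of tested genes. Its log2 fold change was 0.32 ± 0.12 (SE, 95% interval 0.041 to 0.59), with an edgeR adjusted p of 0.121. Dhrs9 (gene 241452), a short-chain dehydrogenase that can oxidise retinol, measured 6.06, 5.62 and 3.67 CPM in vehicle skin and 3.73, 17.7 and 12.2 CPM in AEW skin. Within mouse 1 the AEW to vehicle ratio of Dhrs9 was 0.615, with an exact binomial 95% interval of 0.453 to 0.832. It was 3.15 within mouse 2 (interval 2.52 to 3.96) and 3.32 within mouse 3 (interval 2.52 to 4.44). The AEW cheek was therefore higher in 2 mice and lower in 1, and the groups overlapped. The log2 fold change of Dhrs9 was 1.13 ± 0.52 (SE, 95% interval -0.092 to 2.35), with an edgeR adjusted p of 0.19.

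Aldh1a1 (gene 11668), the most abundant retinaldehyde dehydrogenase in this skin, fell in every mouse. It measured 134, 96.7 and 134 CPM in vehicle mice 1, 2 and 3 and 51.2, 56.7 and 61.7 CPM in AEW mice 1, 2 and 3. Every AEW library lay below every vehicle library, a pattern seen in 19.5% of tested genes. The log2 fold change was -1.10 ± 0.15 (SE, 95% interval -1.46 to -0.75), a level 0.465 times that of vehicle skin (edgeR adjusted p = 0.0119, and 0.0275 with the mouse as a block). Within single animals the ratio was 0.383 for mouse 1 (interval 0.356 to 0.412), 0.586 for mouse 2 (interval 0.543 to 0.633) and 0.46 for mouse 3 (interval 0.429 to 0.493). Without vehicle replicate 1 or vehicle replicate 3 the log2 fold change was -1.03 in each case with edgeR adjusted p of 0.0534 and 0.0603 (0.969% and 0.765% of all genes were called lower in those fits), and over all alternatives its adjusted p ran from 7.84e-09 to 0.0603. Leaving out both libraries of mouse 1 and blocking on the animal gave -0.95 (edgeR adjusted p = 0.00242).

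Aldh1a7 (gene 26358), the closest relative of Aldh1a1 in the mouse, was counted separately, and reads could be divided between such similar genes in either direction. It fell from 34.5 ± 6.02 CPM in vehicle to 21.7 ± 1.65 CPM in AEW skin, a log2 fold change of -0.67 ± 0.14 (SE, edgeR adjusted p = 0.0335). The sum of both genes was 172, 124 and 171 CPM in vehicle mice 1, 2 and 3 and 74.7, 77.1 and 82.8 CPM in AEW mice 1, 2 and 3. The sum was thus lower in AEW skin in all 3 mice, whichever way reads were divided between them.

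Summed levels of marker genes for several other tissue components were lower in all 3 AEW libraries than in any vehicle library, as Aldh1a1 was. The 10 skeletal muscle genes summed to 30222 to 44873 CPM in vehicle skin and 12975 to 18515 CPM in AEW skin. Of these, 8 were called lower (9 with the mouse as a block). The 6 adipocyte genes summed to 2407 to 4011 CPM against 1593 to 2106 CPM. Among them 2 were called lower (0 with the mouse as a block). The 6 endothelial genes, of which 1 was called lower, summed to 315 to 431 CPM against 232 to 279 CPM. Every gene of the muscle, adipocyte and endothelial lists had a negative log2 fold change. Of the 8 sebocyte genes, 1 was called lower (0 with the mouse as a block). Their sum was also lower, at 8160 to 10656 CPM in vehicle skin and 7124 to 8096 CPM in AEW skin. However, that sum rested on the gene Scd1. The other 7 sebocyte genes summed to 2058, 1790 and 1689 CPM in vehicle mice 1, 2 and 3 and to 1620, 2699 and 2602 CPM in AEW mice 1, 2 and 3, and the median log2 fold change over all 8 was 0.44. In bulk tissue, fewer cells of a type and less RNA per cell cannot be told apart, and the part of these components in the fall of Aldh1a1 was not tested.

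Aldh1a3 (gene 56847), which catalyses the same step, was higher on the AEW side in 2 of the 3 mice. It measured 9.34, 6.43 and 8.01 CPM in vehicle mice 1, 2 and 3 and 8.50, 30.5 and 20.6 CPM in AEW mice 1, 2 and 3. AEW mouse 1 lay within the vehicle range and the other AEW libraries lay well above it. Its ratio was 0.91 for mouse 1 (interval 0.732 to 1.13), 4.75 for mouse 2 (interval 3.89 to 5.83) and 2.58 for mouse 3 (interval 2.12 to 3.14). The log2 fold change was 1.33 ± 0.43 (SE, 95% interval 0.32 to 2.33), with an edgeR adjusted p of 0.0883 and a DESeq2 adjusted p of 0.0092. Aldh1a2 (gene 19378), the isozyme of embryonic mesoderm, was scarce at 4.15, 3.46 and 3.06 CPM in vehicle skin and 2.14, 2.68 and 3.20 CPM in AEW skin. These groups overlapped (log2 fold change -0.41 ± 0.24 (SE), edgeR adjusted p = 0.295).

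The 3 isozymes carry out the same reaction, so their TPM values were also added. The sum was 90.8, 68.7 and 91.1 TPM in vehicle mice 1, 2 and 3 and 41.9, 51.8 and 54.9 TPM in AEW mice 1, 2 and 3, lower on the AEW side in each animal. Aldh1a1 made up 91.9%, 91.7% and 93.3% of the sum in vehicle skin and 85.6%, 68.5% and 76.3% in AEW skin. The Aldh1a3 share was 4.86%, 4.57% and 4.23% in vehicle skin and 10.5%, 27.8% and 19.2% in AEW skin. Neither share overlapped between groups. In mouse 1 the larger Aldh1a3 share came with a nearly equal Aldh1a3 level, 4.41 TPM in vehicle and 4.39 TPM in AEW skin, beside less Aldh1a1.

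**Figure D2:**
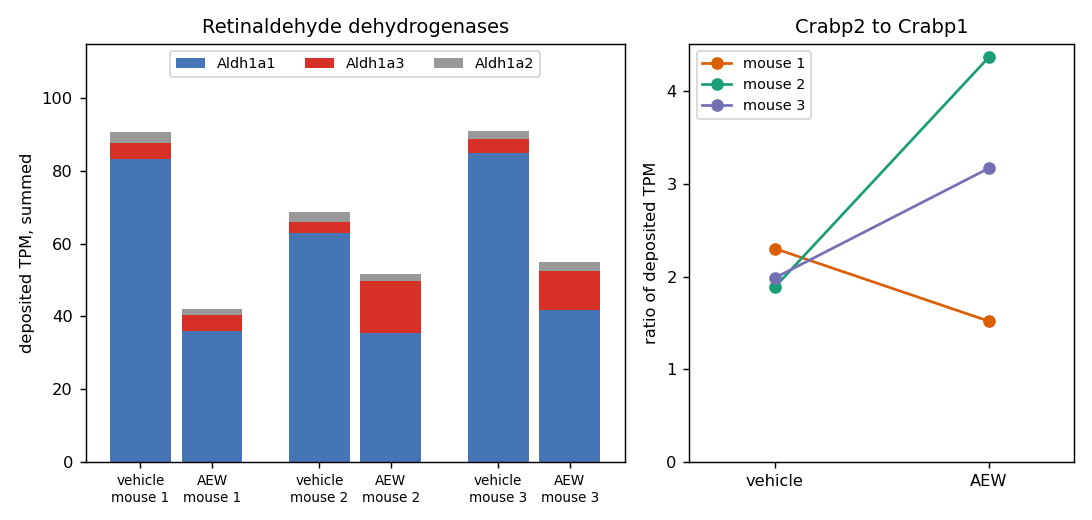
Left, stacked bars of the deposited TPM of Aldh1a1, Aldh1a3 and Aldh1a2 in each cheek; right, the ratio of Crabp2 to Crabp1 TPM with lines joining the cheeks of a mouse. The summed bar is shorter on the AEW side in all 3 mice, its Aldh1a3 segment is widest in AEW mouse 2 (27.8% of the sum), and the Crabp2 to Crabp1 ratio is higher on the AEW side in mice 2 and 3 only.

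RefSeq promoter windows were matched by symbol for 6 of the 9 members, 8 windows in all because Aldh1a1 and Rarg have more than 1 start. They follow GRCm38.p6, a different build from that of the deposited counts, and are used here for their letters only. A set of 3 is printed, as the 250 bases before the start in the direction of transcription: the called gene Aldh1a1, its scarce relative Aldh1a2, and Dhrs9 as the one matched member among those that differed unevenly across mice. Capitals mark every match, on either strand, to AGGTCA (the half-site of retinoid receptors), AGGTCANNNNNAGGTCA (the direct repeat with 5 spacer bases, DR5), TGANTCA (AP-1), CCAAT (the CCAAT box) and ATGCAAAT (the octamer). The motifs were chosen after the sequences were seen.
Aldh1a1, chr19:20601718-20601967, plus strand: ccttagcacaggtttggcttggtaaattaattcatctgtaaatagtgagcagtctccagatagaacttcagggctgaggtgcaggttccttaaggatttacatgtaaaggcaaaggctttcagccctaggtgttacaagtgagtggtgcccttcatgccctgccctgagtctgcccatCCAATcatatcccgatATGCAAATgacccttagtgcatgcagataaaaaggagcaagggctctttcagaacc
Aldh1a2, chr9:71215539-71215788, plus strand: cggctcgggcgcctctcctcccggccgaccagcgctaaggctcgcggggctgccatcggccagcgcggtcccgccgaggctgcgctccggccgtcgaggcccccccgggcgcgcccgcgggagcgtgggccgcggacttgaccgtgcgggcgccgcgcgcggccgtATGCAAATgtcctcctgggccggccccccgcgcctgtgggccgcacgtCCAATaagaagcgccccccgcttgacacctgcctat
Dhrs9, chr2:69380212-69380461, plus strand: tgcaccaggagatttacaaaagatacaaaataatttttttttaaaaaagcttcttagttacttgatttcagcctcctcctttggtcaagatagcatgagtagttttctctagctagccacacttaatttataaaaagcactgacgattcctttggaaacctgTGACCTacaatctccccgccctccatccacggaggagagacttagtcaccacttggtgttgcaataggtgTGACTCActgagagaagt
The Aldh1a1 window holds a CCAAT box at 72 to 68 bases and an octamer at 56 to 49 bases before the start, and the Aldh1a2 window holds the same pair at 36 to 32 and 84 to 77 bases. A CCAAT box occurs in 33.8% and an octamer in 1.6% of all 32851 RefSeq windows of this length. The Dhrs9 window holds an AGGTCA half-site on the minus strand at 88 to 83 bases and an AP-1 match at 18 to 12 bases, which occur in 14.0% and 6.75% of windows. The other Aldh1a1 window also has an AP-1 match, at 57 to 51 bases, and 1 of the Rarg windows has an AGGTCA half-site. The full DR5 letters are in none of the 8 member windows and in 0.00913% of all windows. Matches overlapped only where the AP-1 letters read the same site on both strands, and a match is a description of letters, not evidence of a bound site.

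Of the binding proteins, Crabp2 differed between cheeks as Dhrs9 and Aldh1a3 did, and Crabp1 differed little. Crabp2 (gene 12904), which carries retinoic acid to its nuclear receptors, measured 110.0, 106 and 89.4 CPM in vehicle mice 1, 2 and 3 and 87.8, 245 and 195 CPM in AEW mice 1, 2 and 3. In CPM the AEW library of mouse 1 was the lowest of all 6, whereas in TPM vehicle mouse 3 was lower (169 against 178 TPM). On both scales AEW mice 2 and 3 were the highest for Crabp2. Its ratio was 0.798 for mouse 1 (interval 0.749 to 0.852), 2.31 for mouse 2 (interval 2.19 to 2.43) and 2.19 for mouse 3 (interval 2.06 to 2.32). The log2 fold change was 0.79 ± 0.34 (SE, 95% interval -0.0049 to 1.58), with an edgeR adjusted p of 0.164. Crabp1 (gene 12903), a retinoic acid binding protein that also marks some dermal fibroblasts and hair follicle cells, measured 42.2, 49.7 and 39.8 CPM in vehicle skin and 51.2, 49.5 and 54.5 CPM in AEW skin. The vehicle library of mouse 2 lay just above its AEW library, so the groups overlapped (log2 fold change 0.24 ± 0.11 (SE), 95% interval -0.013 to 0.48, edgeR adjusted p = 0.181). The ratio of Crabp2 to Crabp1 in TPM was 2.30, 1.89 and 1.99 in vehicle skin and 1.52, 4.37 and 3.17 in AEW skin, so it was lower on the AEW side in mouse 1 and higher in mice 2 and 3.

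The receptor and the breakdown enzyme had narrow intervals around 0. Rarg (gene 19411) measured 263, 289 and 281 CPM in vehicle mice 1, 2 and 3 and 291, 266 and 324 CPM in AEW mice 1, 2 and 3. Its log2 fold change was 0.082 ± 0.11 (SE) with a 95% interval from -0.17 to 0.33 (edgeR adjusted p = 0.635). Cyp26b1 (gene 232174) measured 191, 178 and 162 CPM in vehicle skin and 165, 180 and 210 CPM in AEW skin. Its log2 fold change was 0.064 ± 0.12 (SE) with a 95% interval from -0.22 to 0.35 (edgeR adjusted p = 0.755), and the AEW to vehicle ratio was 0.864, 1.01 and 1.30 in the 3 mice in turn. A change of 1 log2 unit in either direction lies outside both intervals. The other breakdown enzymes on the list were hardly counted: Cyp26a1 had 1 estimated count in AEW mouse 2 and Cyp26c1 had 1 each in AEW mice 1 and 2. A count of 0 allows a level of up to 0.149 to 0.167 CPM here (3 counts per library), for counting error only.

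**Figure D3:**
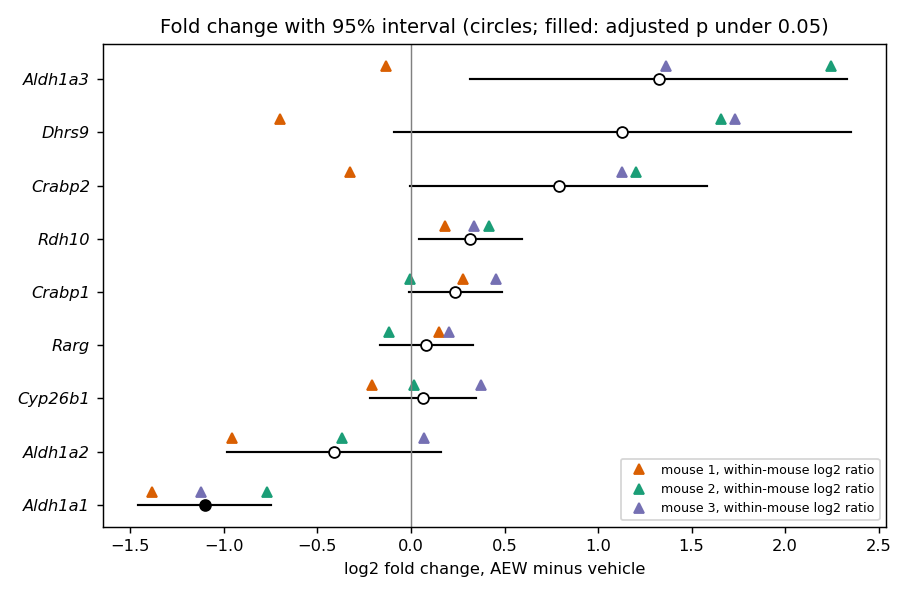
Log2 fold change of the 9 retinoid genes, AEW minus vehicle, with circles and black lines for the estimate and 95% interval of the edgeR fit and triangles for the ratio within each mouse. Aldh1a1 is the 1 filled circle (adjusted p under 0.05), at -1.10, and the mouse 1 triangle lies below 0 for Aldh1a3, Dhrs9 and Crabp2 while those of mice 2 and 3 lie above 1.

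Dhrs9, Aldh1a3 and Crabp2 were thus higher on the AEW side in mice 2 and 3. In mouse 1 Dhrs9 and Crabp2 were lower on the AEW side, and Aldh1a3 was nearly level, with a ratio of 0.91. Each ratio rests on 1 library per cheek, and its interval covers counting error only. When the AEW library of mouse 1 was left out, 4 members were called higher (Aldh1a3, Rdh10, Dhrs9 and Crabp2), and 7.83% of all tested genes were called higher in that fit. Their log2 fold changes were then 1.68 ± 0.22 for Aldh1a3, 0.39 ± 0.099 for Rdh10, 1.54 ± 0.26 for Dhrs9 and 1.10 ± 0.14 for Crabp2 (SE), with edgeR adjusted p of 0.00807, 0.0449, 0.0152 and 0.0073. A fit on mice 2 and 3 alone, blocked on the animal, gave 3 members called higher (Aldh1a3, Dhrs9 and Crabp2), with 12.7% of all genes called higher. Over all alternatives the adjusted p ran from 0.00259 to 0.239 for Aldh1a3, from 0.000949 to 0.465 for Dhrs9, from 0.000638 to 0.388 for Crabp2 and from 0.0449 to 0.295 for Rdh10. The values of AEW mouse 1 for hair and melanocyte genes stand in the account of the libraries, and their part in this pattern was not tested. Keratinocyte genes also differed among the AEW cheeks. A list of 7 stress keratin and alarm genes summed to 1023 to 1269 CPM in vehicle skin. It summed to 3286, 7320 and 4473 CPM in AEW mice 1, 2 and 3. All 7 were called higher, and 3 were called with the mouse as a block. The 8 suprabasal keratinocyte genes summed to 9240 to 12010 CPM in vehicle skin. They summed to 11484, 21683 and 18031 CPM in AEW mice 1, 2 and 3. Of these genes, 7 had a positive log2 fold change and 2 were called higher. For both lists AEW mouse 1 was the lowest AEW library, as it was for Aldh1a3, Dhrs9 and Crabp2. Markers of other cells were also lower in the AEW than the vehicle cheek of mouse 1 and higher in those of mice 2 and 3. The 6 macrophage genes, of which 0 were called, summed to 871, 482 and 392 CPM in vehicle mice 1, 2 and 3 and to 437, 1106 and 840 CPM in AEW mice 1, 2 and 3. The sums of the sebocyte genes other than Scd1, given beside Aldh1a1, ran the same way. The part of these components in the values of Aldh1a3, Dhrs9 and Crabp2 was not tested.

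Around these members, 52 further genes of retinoid handling were listed and 46 were tested, of which 4 were called higher and 4 lower, against 4.85% and 6.8% of all tested genes. With the mouse as a block 1 was called higher (Rbp2) and 1 lower (Aldh1a7). These counts moved with single libraries. Leaving out the vehicle cheek of mouse 1 or of mouse 3 left 0 called in either direction, where 0.216% and 0.15% of all tested genes were called higher and 0.969% and 0.765% lower. Leaving out the vehicle cheek of mouse 2 gave 1 higher and 4 lower (2.46% and 5.28% of all genes). The AEW cheek of mouse 2 left out gave 1 and 1 (1.14% and 1.69%), and that of mouse 3 gave 1 and 0 (2.27% and 4.28%). Leaving out the AEW cheek of mouse 1 gave 15 higher and 3 lower (7.83% and 6.81%). Mice 2 and 3 alone, blocked on the animal, also gave 15 and 3 (12.7% and 10.5%). DESeq2 called 7 pathway genes higher and 6 lower (8.56% and 9.5% of all genes), edgeR with library totals alone 5 and 2 (4.82% and 5.69%), and limma on TPM 5 and 1 with either pseudocount (4.65% and 4.41% with 0.1, and 4.41% in each direction with 1). The median log2 fold change of these 46 genes was 0.069, with 23 of 46 positive. Among 10 tested genes of retinol uptake, carriage and storage, 1 was called higher and 0 lower. That gene was Rbp2 (gene 19660), a cellular retinol binding protein best known from intestine, which measured 9.07, 11.0 and 7.12 CPM in vehicle mice 1, 2 and 3 and 27.2, 56.0 and 31.5 CPM in AEW mice 1, 2 and 3. It was higher on the AEW side in all 3 mice, including mouse 1 (log2 fold change 2.08 ± 0.30 (SE), edgeR adjusted p = 0.0132, and 0.015 with the mouse as a block).

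Among 15 tested enzymes that interconvert retinol and retinaldehyde, 0 were called higher and 2 lower. Adh1, an alcohol dehydrogenase that also oxidises retinol, fell from 73.2 ± 11.4 CPM in vehicle to 43.9 ± 7.41 CPM in AEW skin (log2 fold change -0.74 ± 0.16 (SE), edgeR adjusted p = 0.0338). Rdh14, a retinol dehydrogenase of the short-chain family, fell by 0.41 on the log2 scale (SE 0.095, edgeR adjusted p = 0.0388). Blocked on the animal, neither was called (edgeR adjusted p = 0.0829 and 0.0855). Of the 8 tested aldehyde dehydrogenase relatives, Aldh1a7 was the 1 called lower and 0 were called higher. The rodent cluster of Rdh1, Rdh7, Rdh9 and Rdh16 holds similar copies, so their separate values are uncertain.

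Among 7 tested nuclear receptors and their delivery proteins, 2 were called higher and 1 lower. Fabp5, which can hand retinoic acid to the receptor Ppard in place of the retinoic acid receptors, rose from 612 ± 58.6 CPM in vehicle to 1295 ± 486 CPM in AEW skin (log2 fold change 1.08 ± 0.26 (SE), edgeR adjusted p = 0.0416). Ppard rose from 56.7 ± 3.77 CPM in vehicle to 88.3 ± 16.1 CPM in AEW skin (log2 fold change 0.64 ± 0.15 (SE), edgeR adjusted p = 0.0375). The retinoid X receptor gene Rxrg fell from 12.8 ± 2.24 CPM in vehicle to 7.56 ± 1.19 CPM in AEW skin (log2 fold change -0.75 ± 0.19 (SE), edgeR adjusted p = 0.045). Blocked on the animal, the edgeR adjusted p was 0.0571 for Fabp5, 0.0916 for Ppard and 0.0556 for Rxrg. Without AEW replicate 1 the edgeR adjusted p was 0.0138 for Fabp5, 0.0068 for Ppard and 0.0619 for Rxrg. Rxrg was the 1 of the 8 pathway genes to lose its call there. The part of the muscle, adipocyte and endothelial components in the lower values of Rxrg, Adh1, Rdh14 and Aldh1a7 was not tested. Of 10 tested genes known to respond to retinoic acid, 1 was called higher and 0 lower. It was Areg, the gene of an epidermal growth factor receptor ligand, at 1.37 ± 0.29 CPM in vehicle and 3.37 ± 0.44 CPM in AEW skin (log2 fold change 1.29 ± 0.26 (SE), edgeR adjusted p = 0.0271, and 0.0681 with the mouse as a block). Rarb, Dhrs3, Stra6 and Lrat, of the same list, were not called. Their log2 fold changes were -0.64 ± 0.26, -0.16 ± 0.090, 0.82 ± 0.37 and 0.17 ± 0.17 (SE). The edgeR adjusted p was 0.143, 0.27, 0.181 and 0.533 in the same order. The 7 stress keratin and alarm genes summed to 1023 to 1269 CPM in vehicle and 3286 to 7320 CPM in AEW skin. The part of keratinocytes in the higher values of Rbp2, Fabp5, Ppard and Areg was not tested.

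**Figure D4:**
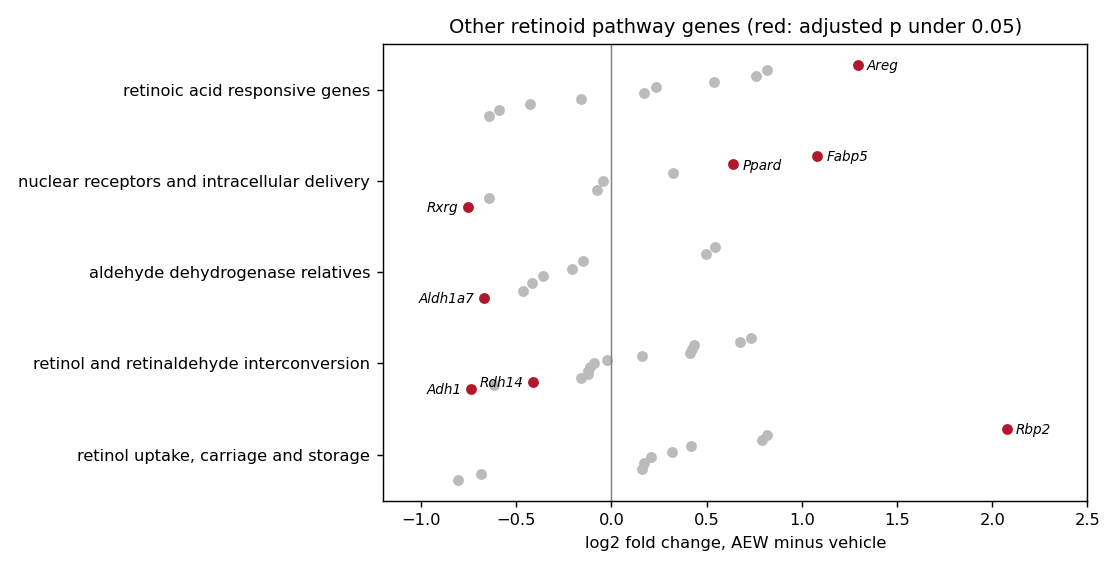
Log2 fold change, AEW minus vehicle, of the tested genes of 5 retinoid pathway lists, 1 point per gene and list, with genes at an adjusted p under 0.05 named in red. Rbp2 stands farthest to the right at 2.08, and the called genes fall on both sides of 0 (4 higher, 4 lower).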

How the data were processed

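RNA of cheek skin was measured in 6 libraries, 3 per group, by single-end reads of 50 bases from poly(A)-selected RNA, per the labels' protocols. The deposited table holds estimated counts, FPKM and TPM per gene made by the authors, per the file headers, together with the authors' group means, which were not used here. The FPKM values made by the authors were not analysed. Reads were aligned with HISAT to GRCm39, per the submitters' processing notes. The sources used here do not give how reads were counted, with which annotation or whether by strand. Overlapping or antisense genes may therefore share reads.

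Estimated counts were rounded to whole numbers, filtered with filterByExpr of edgeR at a minimum count of 10 (15109 of 19309 genes), scaled by TMM and tested by quasi-likelihood with edgeR 4.0.16 (R 4.3.3) on a model holding group alone. Benjamini-Hochberg adjustment covered every tested gene, and the threshold was 0.05. CPM are TMM-scaled, and each standard error is the absolute log2 fold change divided by the square root of F. Intervals of ratios within a mouse are 95% exact binomial intervals and cover counting error only. The procedure was also run on simulated counts, drawn independently for each library. These held no pairing and no library set apart as AEW mouse 1 was, so they do not bear on those features. DESeq2 1.42.0 and limma 3.58.1 on log2(TPM + 0.1) and log2(TPM + 1) were alternatives.

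Both cheeks of a mouse carry its number, so the libraries are paired by animal. Across genes, the 2 cheeks of mice 1, 2 and 3 deviated from their group means with correlations of -0.27, -0.124 and -0.176, so the fit without the block can understate the spread. Replicates of a group differed by more than sampling noise (lowest chi-square per degree of freedom 19.8), so none was treated as a copy. The members and gene lists were chosen with earlier results of these data known. Named were all members, the pathway genes past the threshold, and Aldh1a7; further genes were named after their values were seen. Promoter windows came from RefSeq (GRCm38.p6).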

Additional observations from a re-analysis of the deposited data

How the results depend on the processing

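Aldh1a1 stayed negative in all 14 alternatives and kept its call in 12 of them, the exceptions being the fits without vehicle replicate 1 and without vehicle replicate 3. The count of members called lower was 0 to 1 over the fits that left out 1 library, and that of members called higher 0 to 4, with 4 reached without AEW replicate 1. DESeq2 called 1 member higher, and the fit without mouse 1 with the replicate block called 3. With the replicate block alone, the members' calls were as in the unpaired fit (0 higher, 1 lower). Cyp26b1 changed sign without AEW replicate 3, at a log2 fold change of -0.034 (0.129 without AEW replicate 1 and up to 0.196 without mouse 1 with the replicate block), and was called in none of the alternatives.

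The pathway lists depended more on the settings. Genes called higher numbered 1 with the replicate block, 7 in DESeq2, 15 without mouse 1 with the replicate block, and 0 to 15 over the fits that left out 1 library (0 without vehicle replicate 1 or 3, 15 without AEW replicate 1). Genes called lower numbered 1 with the replicate block, 6 in DESeq2, 2 with library totals alone, 1 in limma on TPM with either pseudocount, and 0 to 4 over the fits that left out 1 library. Causes of these differences were not tested. By counting error Aldh1a2, at 43 to 76 counts a library, was measured least precisely of the members.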
